A study of Mus musculus with 6 samples.

Results

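The 10 genes described here encode the cytoplasmic actins (Actb and Actg1), the beta-thymosins (Tmsb4x and Tmsb10), the actin regulators Cfl1, Pfn1 and Coro1a, and the Arp2/3 subunits Arpc1b, Arpc2 and Arpc3. They are the rows of the deposited count table whose name equals one of these symbols, 10 of 23505 rows, and all 10 had enough counts to be among the 10509 genes tested. The libraries are RNA-seq of hepatic CD4+ T cells from mice that were given concanavalin A (ConA), a lectin whose injection starts a hepatitis driven by T cells. The ConA+SIM group (3 libraries) received simvastatin, a statin that blocks HMG-CoA reductase, by gavage at 30 mg/kg, and the ConA group (3 libraries) received phosphate-buffered saline. Animals were gavaged on each of the 5 days preceding the lectin, then 1 h ahead of it and 24 h afterwards, and both groups received the lectin. All mice were labelled wild type, the cells were primary T cells gated as CD3+ NK1.1- CD4+ CD8-, and no group without ConA was analysed here. The sources used here do not give strain, age or the number of animals behind a library, so the p-values reflect only how far these libraries scatter, and that scatter may be technical.

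Actin monomers polymerise into filaments that shape the T cell, drive its crawling and build the contact with an antigen-presenting cell. Beta-thymosins hold monomers in reserve, profilin (Pfn1) loads them with ATP and hands them to growing ends, cofilin (Cfl1) severs and disassembles old filaments, and the Arp2/3 complex starts branches on existing filaments. Coronin 1A (Coro1a) binds filaments in leukocytes and restrains Arp2/3, and its loss in mouse and human impairs T cell survival and migration.

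Total counts per library ran from 17549429 to 25031862. Zeros made up 18.4% of the tested genes in ConA+SIM replicate 2 and 2.76% to 9.98% elsewhere. Of the T cell markers, 9 of 10 had a row, and their summed level was 3452 to 3663 CPM (counts scaled by library size and TMM factor) in ConA+SIM and 2271 to 3530 CPM in ConA. The sums of the 12 macrophage markers were 245 to 1243 CPM in ConA+SIM and 974 to 2279 CPM in ConA, and those of the 8 sinusoidal endothelial markers were 180 to 539 CPM in ConA+SIM and 284 to 1855 CPM in ConA. The 6 B cell and plasma cell markers summed to 496, 566 and 929 CPM in ConA+SIM replicates 1 to 3, against 114, 1272 and 236 CPM in ConA replicates 1 to 3. ConA replicate 2 had the highest endothelial and the highest B cell sum of all libraries. Of the 6 neutrophil markers Ly6g was at 0 in all libraries, and their sum, most of it S100a8 and S100a9, was 583 to 940 CPM in ConA+SIM and 276 to 455 CPM in ConA. Of the 5 neutrophil markers tested, 3 were higher and 2, Retnlg and Csf3r, were lower in ConA+SIM. Csf3r was at 72.0, 25.7 and 58.0 CPM in ConA+SIM, against 75.3, 121 and 43.6 CPM in ConA. The 7 erythroid and platelet markers, with Ppbp at 0, summed to 229 to 343 CPM in ConA+SIM and 44.3 to 115 CPM in ConA. Of these, 5 were tested and 5 were higher in ConA+SIM. The edgeR adjusted p was under 0.05 for 1, where 0.542% of all tested genes were higher at that threshold. The 10 hepatocyte markers, with Cps1 at 0, summed to 77.8 to 176 CPM in ConA+SIM and 23.5 to 78.4 CPM in ConA, with overlap. Of the 5 hepatocyte markers tested, 5 were higher in ConA+SIM and 0 passed. The smooth muscle actin gene Acta2 had 0 counts in all 6 libraries, as did the smooth muscle and stellate cell genes Tagln, Myh11, Des, Lrat, Col1a2 and Rgs5. The other markers on that list of 10, Dcn, Col1a1 and Col3a1, had low counts in some libraries. The list summed to 0 to 11.5 CPM in ConA+SIM and 0.043 to 8.18 CPM in ConA. The 6 NK cell markers, with Ncr1 and Klra8 at 0, summed to 158 to 190 CPM in ConA+SIM and 57.3 to 258 CPM in ConA. Of the 4 NK cell markers tested, the simvastatin mean was the greater for 3 and the smaller for 1. Klrb1c, 1 of these 3, was at 39.0 to 43.5 CPM in ConA+SIM and 6.69 to 20.0 CPM in ConA, without overlap. The neutrophil and erythroid sums of the groups did not overlap and moved in the same direction as Tmsb4x below; their part in the results was not tested. In such bulk samples fewer cells of a type and less RNA per cell cannot be told apart.

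Of the 10 genes, 1 rose in ConA+SIM and 0 fell at an adjusted p under 0.05 over all genes (quasi-likelihood test of edgeR), where 0.542% of all tested genes rose and 0% fell. The gene that rose was Tmsb4x, which encodes thymosin beta-4, a monomer-sequestering peptide abundant in blood cells. Coro1a and Arpc3 had higher values in each ConA+SIM library than in any ConA library without passing, Actb and Actg1 had lower means in ConA+SIM, and the log2 fold changes of the other 5 genes lay between -0.36 and 0.16. Without adjustment, p was under 0.05 for 3 genes with higher and 1 with lower values; over all tested genes the shares were 5.31% higher and 3.54% lower, 8.85% in either direction. The groups did not overlap in 3 of the 10 genes, all higher in ConA+SIM, where 9.18% of tested genes were higher and 8.57% lower without overlap (17.8% in either direction). Since the genes were chosen with earlier results of these data known, these counts are a description. DESeq2 called 3 of the 10 higher and 1 lower, where it called 3.36% and 1.89% of tested genes (5.25% in either direction), and limma-voom called 2 higher and 0 lower, where it called 1.03% and 0.0666% (1.09% in either direction). Leaving out ConA+SIM replicate 2, or any other single library, left 0 of the 10 genes called.

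**Figure D1:**
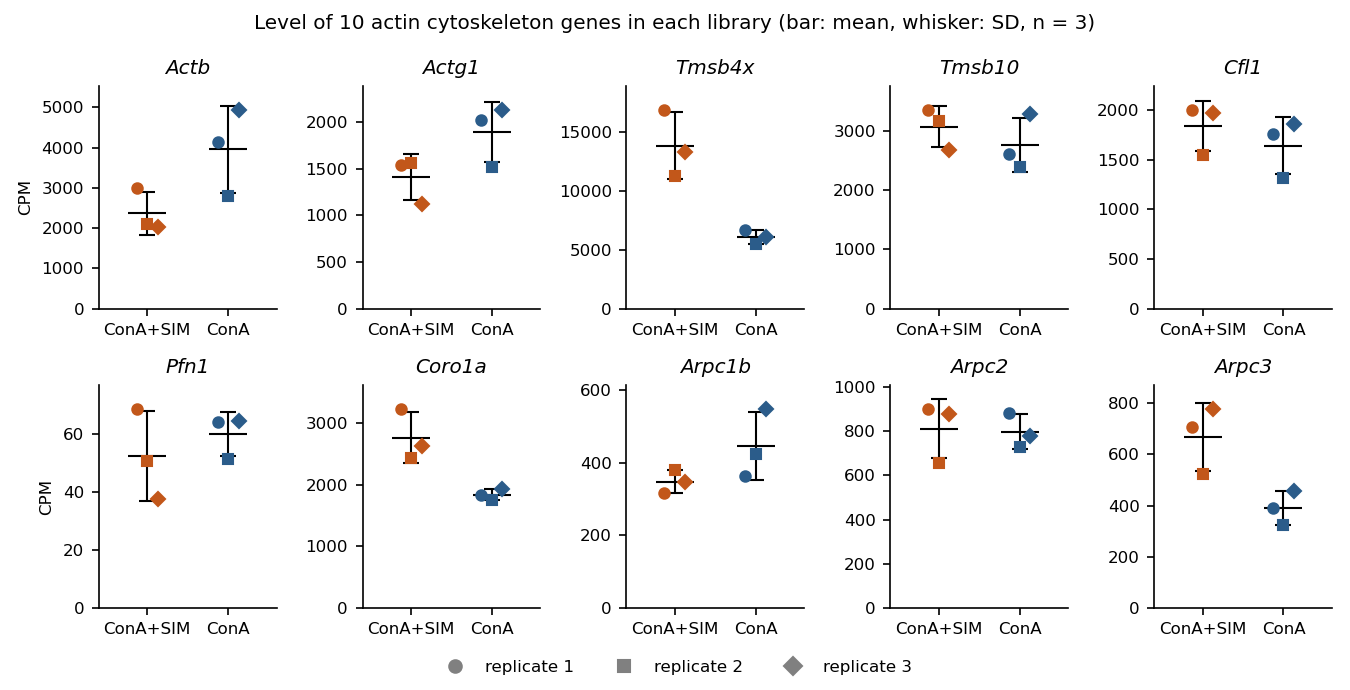
Level of each gene in CPM (vertical axes from 0) in the 3 ConA+SIM and the 3 ConA libraries; markers show the replicate number, bars the mean and whiskers the SD. The ConA+SIM points of Tmsb4x, 11297 to 16905 CPM, all lie above the ConA points, as do those of Coro1a and Arpc3, while the points of the other 7 genes overlap.

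Tmsb4x lies on the X chromosome (chrX:167207093-167209315, minus strand, GRCm38). It stood at 16905, 11297 and 13343 CPM in ConA+SIM replicates 1 to 3, against 6692, 5465 and 6112 CPM in ConA replicates 1 to 3. The lowest ConA+SIM library was thus well above the highest ConA library, and the spread was wider in ConA+SIM (13848 ± 2838 CPM) than in ConA (6089 ± 614 CPM; SD, n = 3 each). The log2 fold change was 1.19 ± 0.16 (SE), a 2.27-fold rise with a 95% interval of 1.76 to 2.94 (edgeR adjusted p = 0.0301). Tmsb4x ranked 2 among all tested genes by mean CPM and 1 by CPM per kilobase of transcript, and it alone took 1.10% to 1.55% of all counts of a ConA+SIM library and 0.591% to 0.710% of those of a ConA library. The call ended in each of the 6 fits that left out a library, where the log2 fold change ran from 1.02 to 1.31. It also ended after correction for transcript length, with 0.57 on the log2 scale (adjusted p = 0.292), and for length and GC content, with 0.47 (adjusted p = 0.748). Over 17 alternatives Tmsb4x was higher in ConA+SIM in all 17 and passed in 7.

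Tmsb10 encodes thymosin beta-10, a close relative of thymosin beta-4 that also binds actin monomers (chr6:72957347-72958748). It stood at 3357, 3172 and 2682 CPM in ConA+SIM, against 2617, 2397 and 3283 CPM in ConA. The groups overlapped, since the highest ConA library reached the level of the upper ConA+SIM libraries, and the log2 fold change of 0.15 had a 95% interval of -0.22 to 0.52. Its direction turned after length correction (-0.50) and after length and GC correction (-0.18). The ratio between the beta-thymosins separated the groups. The count of Tmsb4x was 5.04, 3.56 and 4.97 times that of Tmsb10 in ConA+SIM replicates 1 to 3, against 2.56, 2.28 and 1.86 times in ConA replicates 1 to 3. This ratio, which does not depend on library scaling, was 2.02-fold higher in ConA+SIM, a log2 difference of 1.01 ± 0.21 (SE), with no overlap between groups. The exact two-sided permutation test gave p = 0.1, the smallest that 3 against 3 samples allow, and 0.133 adjusted over the 8 ratios compared.

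Actb, which encodes beta-actin (chr5:142903115-142906754), had a lower mean in ConA+SIM. It stood at 2991, 2094 and 2028 CPM in ConA+SIM, against 4148, 2793 and 4937 CPM in ConA. ConA+SIM replicate 1 lay above ConA replicate 2, so the groups overlapped, and the other 2 ConA+SIM libraries were below all ConA libraries. The log2 fold change was -0.74 ± 0.23, a fold of 0.599 with a 95% interval of 0.416 to 0.862, which did not pass over all genes (adjusted p = 0.358). It was negative in all 17 alternatives, from -0.95 to -0.53, stood at -0.89 after length correction and at -0.74 after length and GC correction, and passed in DESeq2 alone (adjusted p = 0.00442). Actb is often used as a constant reference in expression studies; here the 6 libraries spanned 2028 to 4937 CPM.

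Actg1, which encodes gamma-actin (chr11:120345690-120348542), stood at 1544, 1560 and 1124 CPM in ConA+SIM, against 2029, 1524 and 2133 CPM in ConA. ConA replicate 2 again fell among the ConA+SIM values, and the log2 fold change of -0.43 ± 0.20 did not pass (adjusted p = 0.585). The genome holds 6 processed pseudogenes with at least 95% identity to the Actg1 transcript over 200 bases or more, none of which has a row of its own. Arpc1b, Arpc2, Cfl1 and Tmsb10 have 1 such near-identical gene each, also without a row, and the sources do not say how reads with several matches were counted, so the levels of these genes carry that uncertainty. The ratio of Actb to Actg1 counts was 1.94, 1.34 and 1.80 in ConA+SIM, against 2.04, 1.83 and 2.31 in ConA. The groups overlapped in that ratio (exact permutation p = 0.2, two-sided; adjusted p = 0.229). The count ratio of Tmsb4x to Actb was 5.65, 5.40 and 6.58 in ConA+SIM, against 1.61, 1.96 and 1.24 in ConA. That is a 3.72-fold difference with no overlap (exact permutation p = 0.1, two-sided, the smallest possible; adjusted p = 0.133).

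**Figure D2:**
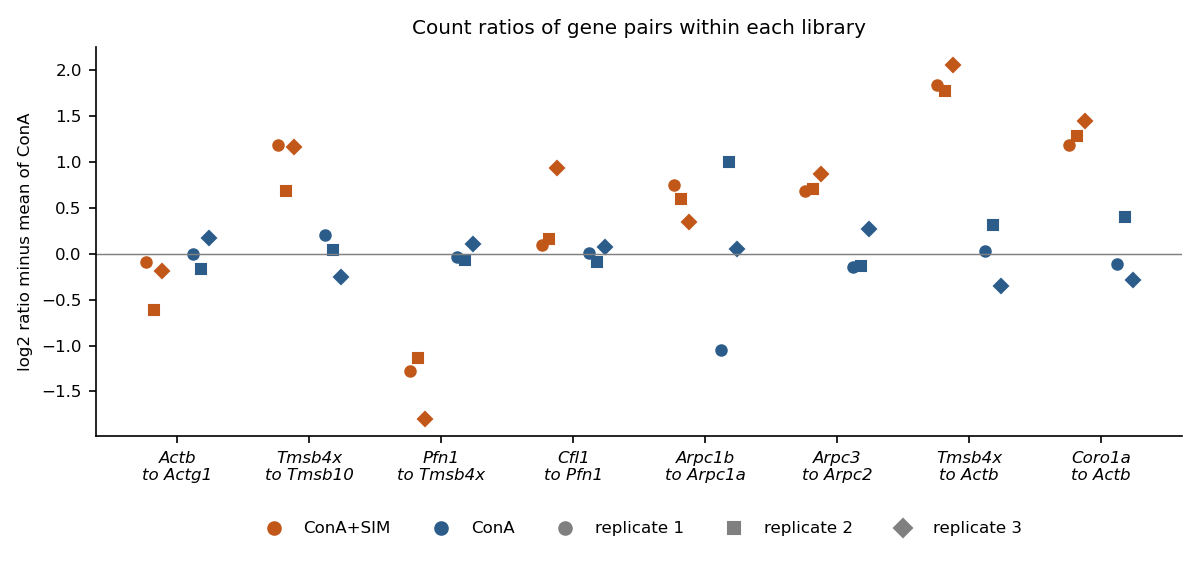
Log2 ratio of the counts of 2 genes in the same library, minus the mean of the ConA libraries (vertical axis), for 8 pairs; each point is a library and its marker the replicate number. The ratios of Tmsb4x and of Coro1a to Actb, of Tmsb4x to Tmsb10 and of Arpc3 to Arpc2 are higher in each ConA+SIM library than in any ConA library.

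The upstream sequences of Tmsb4x, Coro1a and Arpc3, the genes whose groups did not overlap, are set beside that of Actg1. Actin genes are known targets of serum response factor (SRF), which binds the CArG box and is activated when free actin monomer is scarce. Each line gives the 250 bases before the annotated start, 5′ to 3′ on the gene's strand (RefSeq, GRCm38.p6). These starts differ from those of the gene coordinates in this text, which are from GENCODE. By the GENCODE coordinates the Coro1a window lies inside the gene, and the Tmsb4x and Actg1 windows overlap the gene's 5′ end. Capitals mark the CArG box and the GC box GGGCGG on either strand; a pair of GC boxes of Actg1 overlap. Coro1a has another annotated start, not shown.
Tmsb4x, chrX:167209219-167209468 (minus strand): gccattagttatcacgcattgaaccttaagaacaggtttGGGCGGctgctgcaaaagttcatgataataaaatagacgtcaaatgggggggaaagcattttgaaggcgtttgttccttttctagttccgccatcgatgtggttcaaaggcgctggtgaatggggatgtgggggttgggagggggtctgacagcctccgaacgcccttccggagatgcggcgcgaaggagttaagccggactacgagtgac
Coro1a, chr7:126704817-126705066 (minus strand): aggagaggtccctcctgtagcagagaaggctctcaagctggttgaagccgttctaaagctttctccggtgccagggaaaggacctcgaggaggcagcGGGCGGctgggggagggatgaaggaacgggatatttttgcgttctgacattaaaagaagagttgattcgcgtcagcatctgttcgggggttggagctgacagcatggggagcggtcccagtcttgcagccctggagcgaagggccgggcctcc
Arpc3, chr5:122391628-122391877 (plus strand): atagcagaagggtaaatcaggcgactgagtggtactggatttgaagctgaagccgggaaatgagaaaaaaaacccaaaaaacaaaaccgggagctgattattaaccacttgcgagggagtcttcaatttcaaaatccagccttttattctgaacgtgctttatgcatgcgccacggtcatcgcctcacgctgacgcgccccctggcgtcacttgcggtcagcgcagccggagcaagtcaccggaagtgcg
Actg1, chr11:120348496-120348745 (minus strand): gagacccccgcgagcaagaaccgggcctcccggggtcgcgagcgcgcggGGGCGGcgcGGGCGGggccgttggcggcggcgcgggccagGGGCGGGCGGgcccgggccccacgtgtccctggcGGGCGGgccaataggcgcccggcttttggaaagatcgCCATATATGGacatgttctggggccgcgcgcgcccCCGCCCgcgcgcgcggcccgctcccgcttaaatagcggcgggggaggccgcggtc
Of the 10 genes, 9 had an entry in the promoter table, all but Actb. Actg1 was the 1 gene of these 9 with a CArG box in this window, the palindrome CCATATATGG from base -90 to -81 before the start; 1.47% of 32851 promoter windows of this length hold a CArG box. The GC box was found in at least 1 window of 7 of the 9 genes, Cfl1 and Arpc3 being without one, and in 32.7% of all windows. Both shares over all windows are per window, whereas the counts of the 9 genes are per gene. Tmsb10 had 3 windows and Coro1a 2, so the measures are not alike. These matches describe letters only.

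Cfl1, which encodes the filament-severing protein cofilin-1 (chr19:5490455-5495201), stood at 2004, 1547 and 1971 CPM in ConA+SIM, against 1758, 1316 and 1858 CPM in ConA. Replicate 2 was the lowest library in both groups, the groups overlapped, and the log2 fold change of 0.16 had a 95% interval of -0.25 to 0.58. Pfn1, which encodes profilin-1 (chr11:70651850-70654644), stood at 68.7, 50.8 and 37.8 CPM in ConA+SIM, against 64.3, 51.3 and 64.6 CPM in ConA. The log2 fold change of Pfn1 was -0.20, with a 95% interval of -1.16 to 0.77. Pfn1 was the only one of the 10 genes with a numbered copy row: Pfn1_1 held 24, 30 and 2 counts in ConA+SIM, against 26, 13 and 38 counts in ConA. Adding these counts left the 8 ratios and the share of the 10 genes in the counts within the spread between replicates. With 707 to 1643 counts the plain row ranked 3922 among the tested genes by mean CPM, and since the handling of reads shared by both rows is not stated, the level of Pfn1 is uncertain. Relative to Tmsb4x, the Pfn1 count was 0.378-fold in ConA+SIM, and the Cfl1 count relative to Pfn1 was 29.2, 30.5 and 52.1 in ConA+SIM, against 27.3, 25.6 and 28.7 in ConA. The log2 difference of the Cfl1 to Pfn1 ratio, 0.40, was 0.13 without ConA+SIM replicate 3. Neither ratio overlapped between groups over all 6 libraries (exact permutation p = 0.1 each, two-sided, the smallest possible; adjusted p = 0.133).

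Coro1a (chr7:126699773-126707787) stood at 3225, 2428 and 2623 CPM in ConA+SIM, against 1825, 1749 and 1926 CPM in ConA. The ConA libraries lay close together and all 3 ConA+SIM libraries lay above them. The log2 fold change of 0.59 ± 0.15, a 1.505-fold difference with a 95% interval of 1.18 to 1.92, did not pass over all genes (edgeR adjusted p = 0.237), and it passed in 3 of 17 alternatives (DESeq2, limma-voom, and limma-voom with quality weights). After length correction it was 0.38 and after length and GC correction 0.69, and it was positive in all 17. Relative to Actb in the same library, the Coro1a count was 1.08, 1.16 and 1.29 in ConA+SIM, against 0.440, 0.626 and 0.390 in ConA, a 2.47-fold difference (exact permutation p = 0.1, two-sided, the smallest possible; adjusted p = 0.133). The strand setting of the counting is not stated, and Coro1a overlaps Bola2 on the other strand by 26 bases, Cfl1 overlaps Snx32 by 2967 bases and Arpc1b overlaps Pdap1 by 1937 bases; reads of such pairs cannot be told apart without strand.

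The 3 Arp2/3 subunit genes had values in different directions, and 0 of the 3 passed. Arpc3, for a small subunit of the complex (chr5:122391878-122414184), stood at 705, 522 and 777 CPM in ConA+SIM, against 390, 325 and 458 CPM in ConA. Each ConA+SIM library was above each ConA library, and the log2 fold change of 0.77 ± 0.22 did not pass (adjusted p = 0.302; 0.00396 by DESeq2). Arpc2, for a core subunit that contacts the mother filament (chr1:74236084-74268209), stood at 900, 657 and 876 CPM in ConA+SIM, against 885, 730 and 780 CPM in ConA. The groups of Arpc2 overlapped throughout, with a log2 fold change of 0.02 and a 95% interval of -0.40 to 0.45. Arpc1b, the version of the p41 subunit that predominates in blood cells and whose loss causes an immunodeficiency in humans (chr5:145114215-145130705), stood at 316, 380 and 348 CPM in ConA+SIM, against 364, 425 and 549 CPM in ConA. Arpc1b had a log2 fold change of -0.36 with a 95% interval of -0.85 to 0.14. The count of Arpc3 was 0.784, 0.794 and 0.887 times that of Arpc2 in ConA+SIM, against 0.441, 0.445 and 0.588 times in ConA, a 1.69-fold difference without overlap (exact permutation p = 0.1, two-sided; adjusted p = 0.133). The Arpc3 transcript is 899 nt long and that of Arpc2 1439 nt, and after length correction Arpc3 stood at 0.24 and Arpc2 at -0.29. The alternative p41 gene Arpc1a stood at 35.2 ± 6.62 CPM in ConA+SIM and 74.0 ± 40.3 CPM in ConA, and its ratio to Arpc1b overlapped between groups (exact permutation p = 0.5, two-sided; adjusted p = 0.5). The log2 difference of the Arpc1b to Arpc1a ratio, 0.57, rested on single ConA libraries: it was 0.04 without ConA replicate 1 and 1.07 without ConA replicate 2, where the groups did not overlap.

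**Figure D3:**
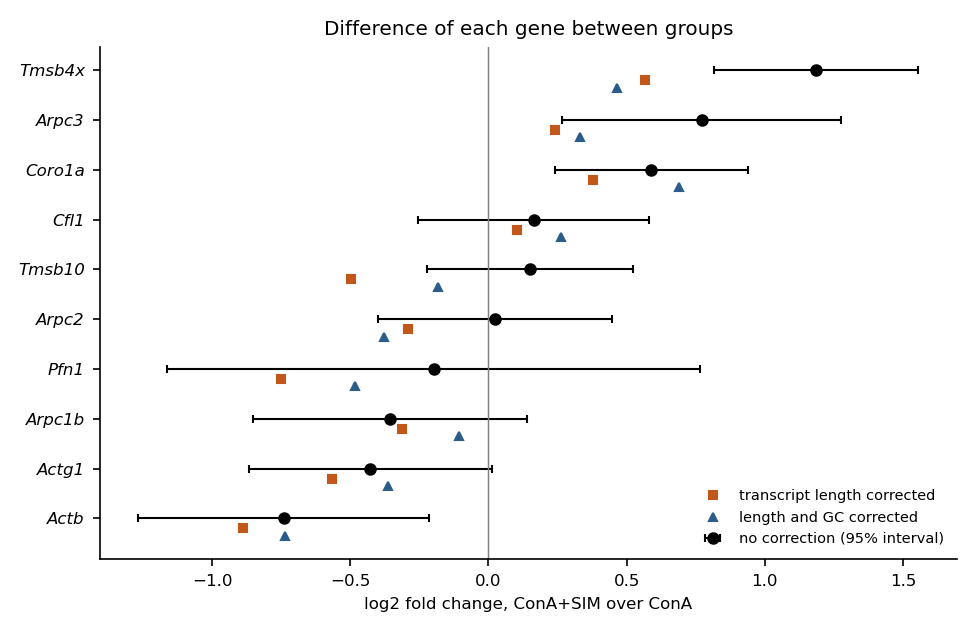
Log2 fold change of each gene, ConA+SIM over ConA (horizontal axis), without correction (circles, bars are 95% intervals of the edgeR fit) and after correction for transcript length or for length and GC content. Tmsb4x, at 1.19 without correction, lies at 0.57 and 0.47 with them, whereas Actb stays between -0.89 and -0.74.

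Differences between groups went with transcript length over all genes. With tested genes in 5 equal classes by length, the class with the shortest transcripts, up to 1721 nt, had a median log2 fold change of 0.34, and the class with the longest, from 4920 nt, one of -0.31. Tmsb4x (768 nt), Tmsb10 (690 nt), Pfn1 (861 nt), Arpc3 (899 nt) and Arpc2 (1439 nt) fell in the shortest class. Of these, Tmsb4x and Arpc3 lay above the median of that class and Tmsb10, Pfn1 and Arpc2 below it. Actb (1920 nt), Actg1 (1952 nt), Coro1a (1747 nt) and Cfl1 (2354 nt) fell in the next class, where the median was 0.06; Coro1a and Cfl1 lay above it and both actins below it. Arpc1b (3105 nt) lay below the median of its class, -0.09.

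**Figure D4:**
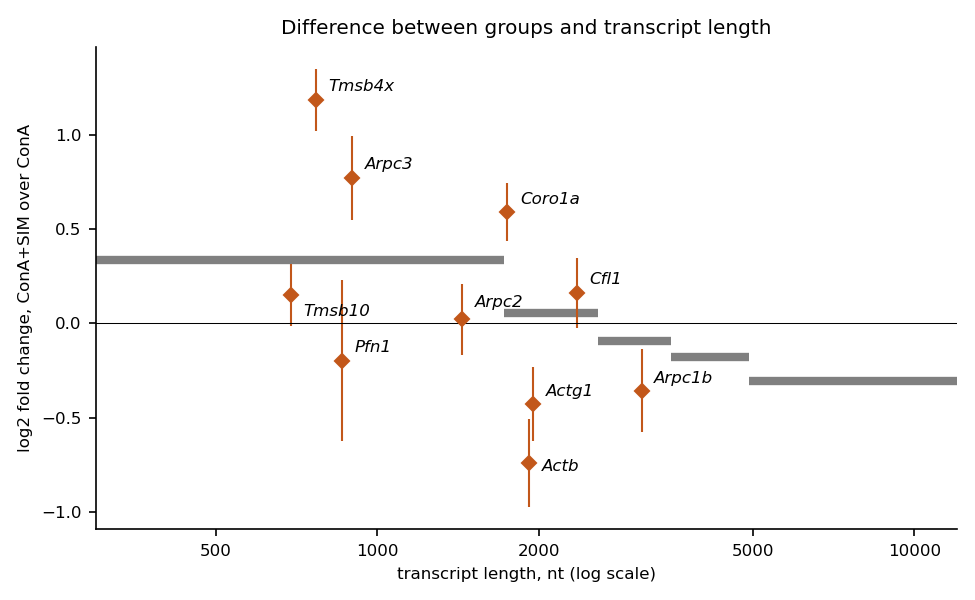
Log2 fold change, ConA+SIM over ConA (vertical axis), of the 10 genes against transcript length in nt (horizontal log axis); diamonds with SE bars are the genes and grey bars the medians of 5 equal classes of all tested genes by length. The grey bars step down from 0.34 to -0.31, Tmsb4x stands above the first and Actb below the second.

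Per kilobase of transcript, Tmsb4x had the highest level of the 10 genes, 12980.2 ± 6028 CPM per kilobase over the 6 libraries (SD), followed by Tmsb10 at 4229 ± 583. Then came Actb (1648 ± 603), Coro1a (1314 ± 328), Actg1 (846 ± 190), Cfl1 (740 ± 113), Arpc3 (589 ± 198) and Arpc2 (559 ± 68.5), in which no neighbour in the order differed beyond its SD. Arpc1b (128 ± 26.5) and Pfn1 (65.3 ± 13.6) were lower, each apart from its neighbour by more than their SDs. The order of the means differed between groups. In ConA+SIM, Coro1a (1579 ± 238) lay above Actb (1235 ± 280) and Arpc3 (743 ± 146) above Actg1 (722 ± 127). The SDs of both pairs overlapped, though Coro1a lay above Actb in each ConA+SIM library. In ConA, Actb (2062 ± 565) lay above Coro1a (1049 ± 50.7) beyond their SDs. Arpc2 (555 ± 54.8) lay above Arpc3 (435 ± 74.4) in ConA with SDs that overlapped. These levels depend on the transcript taken as the length: with the shortest basic coding transcript Cfl1 would stand at 2260 and Arpc1b at 285 CPM per kilobase. The 10 genes together took 2.93%, 2.32% and 2.41% of all counts in ConA+SIM replicates 1 to 3 and 2.20%, 1.81% and 2.24% in ConA replicates 1 to 3. The 95% Wilson interval of the first of these shares was 2.93% to 2.94%; it covers counting error only. Without Tmsb4x the share was 1.25% ± 0.116 in ConA+SIM and 1.45% ± 0.204 in ConA (SD, n = 3 each).

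The profile most like that of Actb over the 6 libraries belonged to Rps6ka1, a kinase gene downstream of ERK, with a root mean square difference of 0.043 in centred log2 CPM, followed by the mitochondrial transaminase gene Got2 (0.096) and Vasp (0.099), which encodes a protein that elongates actin filaments. Rps6ka1 stood at 153 ± 35.7 CPM in ConA+SIM and 262 ± 66.3 CPM in ConA. Those most like Tmsb4x were the ATP synthase subunit gene Atp5j (0.106), the ribosomal protein gene Rpl30 (0.107) and Ddb2 (0.118), a DNA damage recognition gene. Atp5j stood at 207 ± 31.1 CPM in ConA+SIM and 99.5 ± 13.6 CPM in ConA, and Rpl30 at 1568 ± 341 CPM in ConA+SIM and 657 ± 113 CPM in ConA. Actb was closer to Actg1 (0.240) than to any other of the 10 genes, and Tmsb4x was closest to Arpc3 (0.273), then to Coro1a (0.308).

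Around the 10 genes, the wider actin machinery had mostly lower values in ConA+SIM. Of 104 other tested genes on the 10 pathway lists, 24 had higher and 80 lower values, 76.9% lower, with a median log2 fold change of -0.41; over all tested genes 52.0% were lower and the median was -0.04. The test over all genes called 1 of the 104 higher and 0 lower. At an unadjusted p under 0.05 there were 6 higher and 14 lower, where 5.31% and 3.54% of all tested genes lay. The groups did not overlap in 6 higher and in 28 lower, and these 28 were 26.9% of the 104. The shares over all tested genes were 9.18% and 8.57%. The median SE of the log2 fold change was 0.36 for the 104 genes and 0.76 over all tested genes. The shares over all tested genes are thus those of more variable genes, and no set matched for SE was compared. After length correction 82 of the 104 were lower with a median of -0.41, and after length and GC correction 75 were lower with a median of -0.24. Across the alternatives the median stayed between -0.46 and -0.24. The lists have no test as sets.

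The gene called was Myl6, the essential light chain of non-muscle myosin. It stood at 2031, 1793 and 1657 CPM in ConA+SIM, against 1041, 773 and 942 CPM in ConA, and its log2 fold change was 0.99 ± 0.17 (edgeR adjusted p = 0.0485). Its transcript is 665 nt long, and length correction left 0.33 on the log2 scale (adjusted p = 0.708). It did not pass in any fit that left out a library. Myh9, the heavy chain that pairs with it, has a transcript of 7433 nt and stood at 858, 681 and 848 CPM in ConA+SIM, against 1519, 1291 and 1721 CPM in ConA (log2 fold change -0.92 ± 0.18, adjusted p = 0.0743). Myh9 passed with RLE scaling, DESeq2 and limma-voom with and without quality weights (adjusted p from 2.69e-07 to 0.0440), and stood at -0.67 after length correction (adjusted p = 0.460) and at -0.35 after length and GC correction (adjusted p = 0.9995). In that list of bundling, membrane-linking and myosin genes, 5 of 33 had higher and 28 lower values, with a median of -0.46 (-0.27 after length and GC correction). The scaffold gene Iqgap1 stood at 414 ± 44.9 CPM in ConA+SIM and 716 ± 52.0 CPM in ConA (adjusted p = 0.154).

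Of 11 formins and Ena/VASP proteins, which build unbranched filaments, 1 had a higher and 10 lower values, 0 passed, and the median was -0.64 (-0.36 after length and GC correction). Fmnl1, a leukocyte formin, stood at 392 ± 7.795 CPM in ConA+SIM and 615 ± 94.6 CPM in ConA (adjusted p = 0.316), Diaph1 at 183 ± 49.7 CPM in ConA+SIM and 353 ± 41.2 CPM in ConA (adjusted p = 0.258), and Vasp at 293 ± 72.0 CPM in ConA+SIM and 457 ± 137 CPM in ConA (adjusted p = 0.575).

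Among 9 tested Arp2/3 subunits, 4 had higher and 5 lower values, 0 passed, and the median was -0.12, which turned to 0.04 without ConA+SIM replicate 2 and to 0.06 without ConA replicate 3, and was -0.25 without ConA+SIM replicate 1 or ConA replicate 2 and -0.04 without ConA+SIM replicate 3. Actr2, an actin-related core subunit, stood at 944 ± 306 CPM in ConA+SIM and 760 ± 26.1 CPM in ConA, and Arpc4 at 148 ± 35.6 CPM in ConA+SIM and 204 ± 14.5 CPM in ConA (adjusted p = 0.932 and 0.781). Of 17 genes that activate or inhibit the complex, 5 had higher and 12 lower values, 0 passed, and the median was -0.31 (-0.16 after length and GC correction). Gmfg, whose protein debranches Arp2/3 networks in leukocytes, stood at 630 ± 63.3 CPM in ConA+SIM and 346 ± 43.3 CPM in ConA (log2 fold change 0.86 ± 0.19, adjusted p = 0.137; 0.16 after length correction, on a transcript of 657 nt). Brk1, the smallest subunit of the WAVE complex, stood at 186 ± 24.4 CPM in ConA+SIM and 105 ± 21.2 CPM in ConA, whereas Wasf2, the WAVE protein itself, stood at 196 ± 17.5 CPM in ConA+SIM and 304 ± 85.2 CPM in ConA (adjusted p = 0.392 and 0.527).

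The 5 tested coronins had 1 gene with higher values, Coro1a, and 4 with lower values, and their median of -0.50 was -0.80 without ConA+SIM replicate 2. Coro1c stood at 76.1 ± 14.9 CPM in ConA+SIM and 152 ± 29.9 CPM in ConA (log2 fold change -0.996 ± 0.32, adjusted p = 0.369), Coro7 at 110 ± 35.9 CPM in ConA+SIM and 155 ± 4.42 CPM in ConA, and Coro2b, sparse in these libraries, at 2.83 ± 4.90 CPM in ConA+SIM and 11.3 ± 9.88 CPM in ConA. Of 10 filament end-capping genes, 5 had higher and 5 lower values, with 0 passing and a median of -0.09 that turned to 0.16 with limma-voom and quality weights, and was also above 0 with the replicate block and without ConA replicates 1 or 2. The capping protein genes Capza1 (592 ± 102 CPM in ConA+SIM and 356 ± 31.4 CPM in ConA) and Capza2 (464 ± 99.6 CPM in ConA+SIM and 294 ± 37.5 CPM in ConA) had higher values, and Carmil2, a regulator of capping protein that T cells need for CD28 signals, had 50.7 ± 24.4 CPM in ConA+SIM and 163 ± 38.3 CPM in ConA (log2 fold change -1.68 ± 0.42, adjusted p = 0.213).

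Of 12 genes for cofilins, severing proteins and their kinases and phosphatases, 5 had higher and 7 lower values, 0 passed, and the median was -0.33. That median rested on single libraries: it was -0.012 without ConA+SIM replicate 2, -0.15 without ConA+SIM replicate 3, -0.16 and -0.18 without ConA replicates 1 and 3 and -0.51 without ConA+SIM replicate 1, and -0.022 after length and GC correction. Cfl2, the cofilin best known from muscle, stood at 70.6 ± 23.5 CPM in ConA+SIM and 24.5 ± 13.3 CPM in ConA (log2 fold change 1.53 ± 0.57, adjusted p = 0.435). Wdr1, a cofilin helper, stood at 312 ± 120 CPM in ConA+SIM and 428 ± 151 CPM in ConA, and the cofilin kinase gene Limk2 at 60.5 ± 4.70 CPM in ConA+SIM and 84.7 ± 27.6 CPM in ConA. In the list of thymosins and other monomer-binding proteins, 7 of 12 genes were tested, Tmsb4x passed, 3 had higher and 4 lower values, and the median was -0.20. It was -0.0085 without ConA+SIM replicate 3, -0.027 without ConA replicate 3, -0.38 without ConA+SIM replicate 1, -0.32 without ConA replicate 2 and -0.50 after length correction. Cap1, which recharges actin monomers, stood at 620 ± 82.7 CPM in ConA+SIM and 745 ± 135 CPM in ConA, and Twf2, a monomer-binding twinfilin, at 123 ± 37.6 CPM in ConA+SIM and 168 ± 91.8 CPM in ConA. Cap2, sparse in these libraries, stood at 0.641 ± 1.11 CPM in ConA+SIM and 7.98 ± 1.602 CPM in ConA. Its log2 fold change was -3.62 ± 2.95 (SE, edgeR adjusted p = 0.955). Of 8 genes for SRF and its partners, 1 had a higher and 7 lower values, 0 passed, and the median was -0.64. That median was -0.22 without ConA+SIM replicate 2, -0.36 without ConA replicate 3 and -1.28 without ConA+SIM replicate 1. The median SE of these 8 genes was 0.65. Srf itself, counted as lower, had a log2 fold change of -0.010 ± 0.39 (edgeR adjusted p = 0.999). Elk4 stood at 19.4 ± 9.68 CPM in ConA+SIM and 52.6 ± 26.3 CPM in ConA, Elk3 stood at 43.2 ± 15.4 CPM in ConA+SIM and 63.6 ± 24.1 CPM in ConA, and the actin-sensing coactivator gene Mrtfa at 62.4 ± 15.6 CPM in ConA+SIM and 76.8 ± 23.2 CPM in ConA (adjusted p = 0.609, 0.99 and 0.999).

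**Figure D5:**
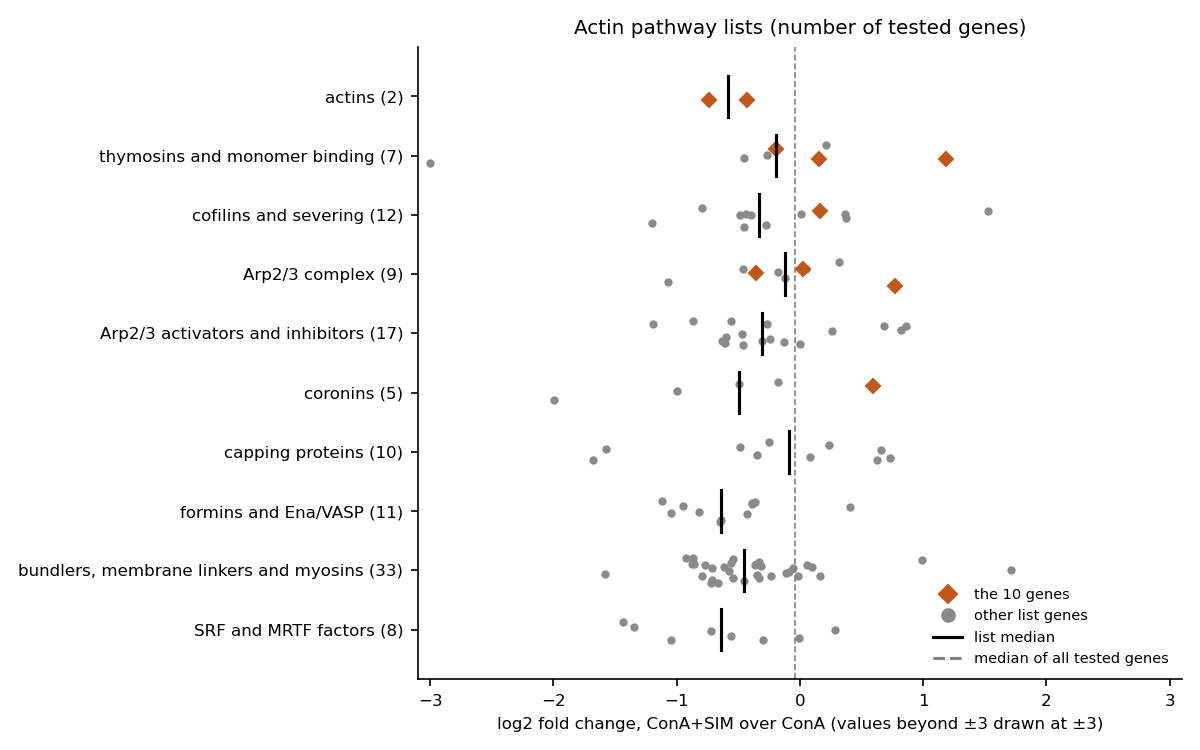
Log2 fold change, ConA+SIM over ConA (horizontal axis), of each tested gene on 10 actin pathway lists (rows, with the number of tested genes); orange diamonds are the 10 genes, grey circles other genes, black bars the list medians and the dashed line the median of all tested genes, -0.04. Without correction the medians of all 10 lists lie left of the dashed line, from -0.09 for capping proteins to -0.64 for formins and for SRF factors, although those of capping proteins and the Arp2/3 complex turned positive in some alternatives, while Tmsb4x, Arpc3 and Coro1a lie to its right.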

How the data were processed

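The submitters' processing notes name HISAT2 2.1.0 and the mouse build GRCm38. The sources used here do not name the counting tool, annotation, strand setting or handling of reads with several matches. The deposited values are raw, unnormalized counts, 1 table of 23505 rows; columns were matched to samples by title, and 0 columns were unused. Libraries of a group differed by far more than counting noise (chi-square 147 to 303 times its degrees of freedom), and each was counted as 1 replicate. This scatter does not show that the libraries came from separate animals.

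Genes were kept with filterByExpr, scaled with TMM factors and tested with the quasi-likelihood F test (robust) of edgeR 4.0.16 in R 4.3.3, ConA+SIM over ConA, with Benjamini-Hochberg adjustment over all tested genes and a threshold of 0.05. The SE of a log2 fold change is its size over the square root of F. CPM are counts relative to the scaled total. Ratios of counts had 0.5 added to each count and were tested by exact permutation. Coordinates, lengths and GC content are from GENCODE M21, with 1 transcript per gene (principal, basic, then longest), and 95.5% of tested genes had a length. Near-identical transcripts were sought with BLAST 2.17.0. Simulated data for this comparison, 10509 genes, gave calls for 12% of genes changed 4-fold and 0% of those changed 2-fold.

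The genes, lists and the naming rule were chosen with earlier results of these data known. Named are the 10 genes, up to 3 other genes of each list with the smallest p, the 3 profiles nearest to Actb and to Tmsb4x, Acta2 and, outside that rule, Srf. Alternatives were RLE scaling, 2 other filters, DESeq2 1.42.0, voom of limma 3.58.1 with and without quality weights, a replicate block, leaving out each library or ribosomal protein genes, length and GC offsets, and adding copy rows. Genes of 1 further pathway list are not reported here.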

Additional observations from a re-analysis of the deposited data

How the results depend on the processing

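Of the 10 genes, 1 was called higher with RLE scaling, either other filter and copy rows added. That count was 3 with DESeq2, 2 with limma-voom and 2 with quality weights, and 0 with ribosomal protein genes left out (the symbol pattern also takes Rps6k kinases), with transcript length correction and with length and GC correction; without each library in turn it ranged from 0 to 0. DESeq2 called 1 of them lower, Actb. Over all genes, calls higher and lower were 353 and 199 with DESeq2, 108 and 7 with limma-voom, 110 and 4 with quality weights, 0 and 0 with ribosomal protein genes left out and with either correction, and 0 to 3 higher without 1 library; RLE scaling and no filter each gave 1 lower. All 57 genes called had the same sign in each setting that tested them (20 of them with ribosomal protein genes left out); the cause of the lost calls was not tested. Log2 fold changes reversed for Tmsb10 with length correction (-0.50) and with length and GC correction (-0.18), and for Arpc2 with these (-0.29 and -0.38) and without 1 library (-0.058 to 0.16). The coronin list's median was -0.088 with length and GC correction, against -0.50; the 8 ratios kept their direction without each library, with copy rows added and with the replicate block, the settings run for them. Deviations of same-numbered samples from their group means had correlations of 0.011, 0.009 and 0.033. With 3 libraries per group these values cannot show whether such samples were paired in handling, and the sources do not say. With the replicate block 0 of the 10 genes and 0 of all genes were called, and Tmsb4x stood at 1.17 (edgeR adjusted p = 0.285). In simulated data of this design, with changed genes drawn from all tested genes, 0% of 2-fold differences were called. The median SE of the log2 fold change was 0.76 over all tested genes, against 0.15 to 0.43 for the 10 genes, so that share need not hold for them. A gene without a call may still differ.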
